A study of Mus musculus with 9 samples.

Results

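The proteasome is the large protease that degrades proteins tagged with ubiquitin, and its genes were examined here in mouse testis RNA. Members were chosen by name alone: every gene of the deposited table whose first name begins with Psma, Psmb, Psmc, Psmd, Psme, Psmf or Psmg and a number. Psmc3ip, a meiotic recombination gene with a similar name, and names marking pseudogenes were left out. This gave 48 genes on 51 rows, out of 23844 genes in the table.

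The RNA-seq part of the study compared 3 libraries labelled Lin28a knockout with 3 labelled wild type, all from testes of C57BL/6 mice at postnatal day 10. The titles of the knockout libraries carry the abbreviation cKO, and the sources used here do not say how the deletion was made. Another 3 samples are CLIP libraries of RNA held by LIN28A, not analysed here. Separate animals are not named for the libraries of a group. LIN28A is an RNA-binding protein that holds back the maturation of let-7 microRNAs and is found in undifferentiated spermatogonia.

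The deposited table holds 1 FPKM value per group and transcript, under the headings case and control, called the case column and the control column here; they were read as the knockout and the wild-type libraries from those names. FPKM counts fragments relative to transcript length and to library size, so levels of different genes can be set side by side. With 1 pooled value per group there is no SD or n behind any FPKM below, the depth is unknown, and differences can be judged only by the authors' own test. That test gives a p-value and, adjusted over all tested rows, a q-value. Lin28a itself stood at 23.4 FPKM in the case column and 8.82 FPKM in the control column (q = 0.00191 in the authors' deposited table). The targeted gene thus goes against the column label, and each direction below rests on the column names. Testis identity was plain in both columns, with the Sertoli cell genes Clu at 2028 and 2251 FPKM and Amh at 128 and 108 FPKM, and the germ cell gene Ddx4 at 72.6 and 72.8 FPKM, case first.

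As background, the complete proteasome consists of a barrel, the 20S core, and caps that feed it. The barrel is built from outer rings of alpha subunits, which gate the entrance, and inner rings of beta subunits, of which Psmb5, Psmb6 and Psmb7 carry the standard protein-cutting sites. The 19S cap has a base, with a ring of ATPases that unfold substrates, and a lid, which removes ubiquitin. Some tissues exchange subunits: cells exposed to interferon put in Psmb8, Psmb9 and Psmb10, the thymus cortex puts in Psmb11, and male germ cells use the alpha subunit Psma8 and the activator Psme4.

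Transcripts of this machinery were abundant and nearly equal in the 2 columns. Summed over all 48 genes, they reached 3839 FPKM in the case column and 3826 FPKM in the control column, which was 1.17% of all FPKM in each. Of the 48 members, 29 averaged at least 50 FPKM, or 60.4% of them. Among all genes with a mean of at least 1 FPKM the corresponding share was 10.5%. The level of most members was therefore high, and its order among members was almost the same in both columns (Spearman rho 0.995 over 47 genes measured in the same libraries, given as a description). Only Psmb11 averaged under 1 FPKM, so 47 of the 48 members entered the counts of differences below.

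**Figure D1:**
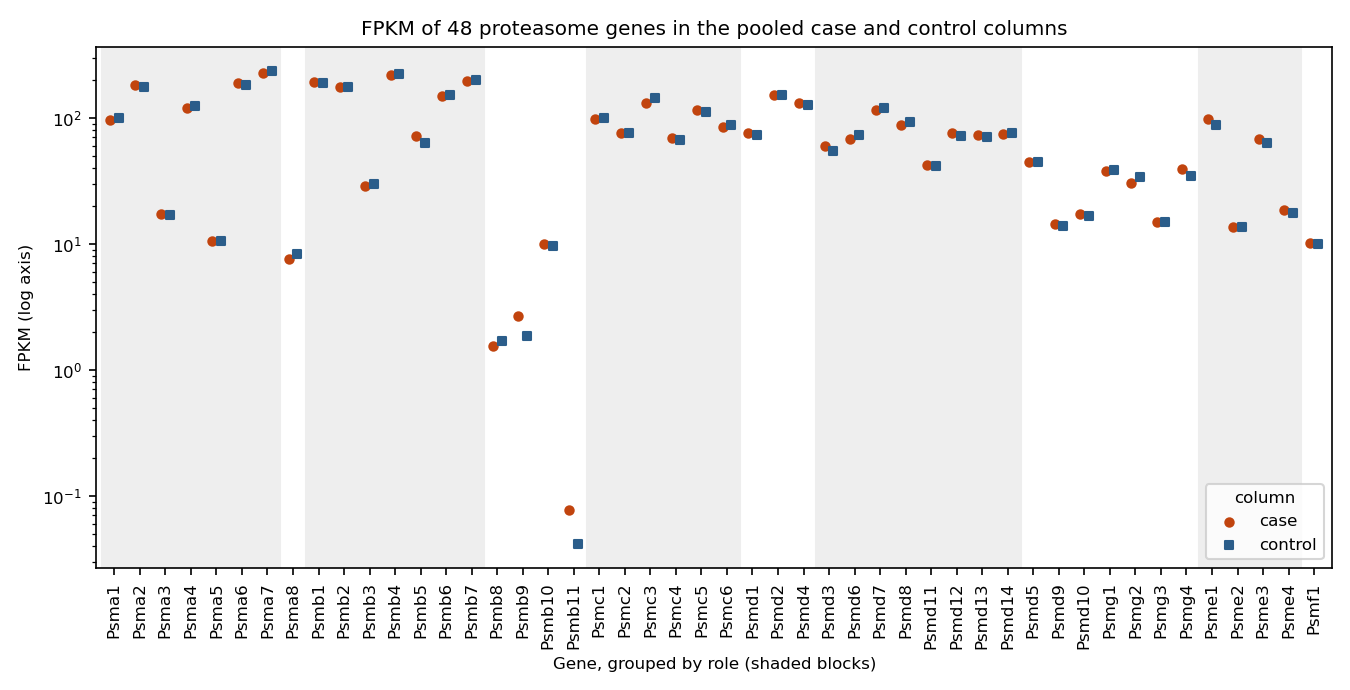
FPKM (log axis) of each of the 48 proteasome genes in the pooled column labelled case (circles) and the pooled column labelled control (squares), ordered by role from alpha subunits at the left to the inhibitor Psmf1 at the right. Each point is a single pooled value without an error bar, and paired points nearly coincide except for Psmb9 and Psmb11 at the bottom of the range.

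No member differed between the columns by the authors' test. Of the 50 member rows with a usable p-value, 0 passed a q-value of 0.05 and 0 had an unadjusted p under 0.05. Over all 13629 tested rows, 0.0514% passed the q-value and 1.28% had p under 0.05, so a list of this size with no called row is not set apart from the table by that count. The smallest member p was 0.442, for Psmb9, and the median member p was 0.856, against a median of 0.731 over all tested rows in the authors' deposited table. The sources used here name neither the program behind this test nor how the libraries entered it.

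The differences themselves were small. On the log2(FPKM + 1) scale, case minus control, the 47 members had a median of 0.01 and ran from -0.15 for Psmg2 to 0.37 for Psmb9. All 12794 genes with a mean of at least 1 FPKM had a median of 0.03. Of the 47 members, 25 were higher and 22 lower in the case column. That is 53.2% higher, beside a background of 60.7% of all genes. The split moved with the scale of the columns: it was 15 higher and 32 lower (31.9% higher) after median-of-ratios scaling, where 49.1% of all genes were higher, and 19 higher and 28 lower (40.4%) after quantile normalization, where 52.1% were. Within 0.1 of zero lay 37 of the 47 members (78.7%), beside 53.1% of all genes. Differences were smaller at higher levels in the whole table: among genes averaging at least 10 FPKM, 35 of 43 members (81.4%) lay within 0.1 of zero, beside 61.8% of 7040 genes. With rows summed per gene, Psmb9 was the 1 member that differed by over 1.2-fold on that scale (2.13% of members), beside a background of 10.7% of all genes. With the highest row of each gene alone, Psmg4 passed as well, at 0.28 against 0.19 for its summed rows.

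**Figure D2:**
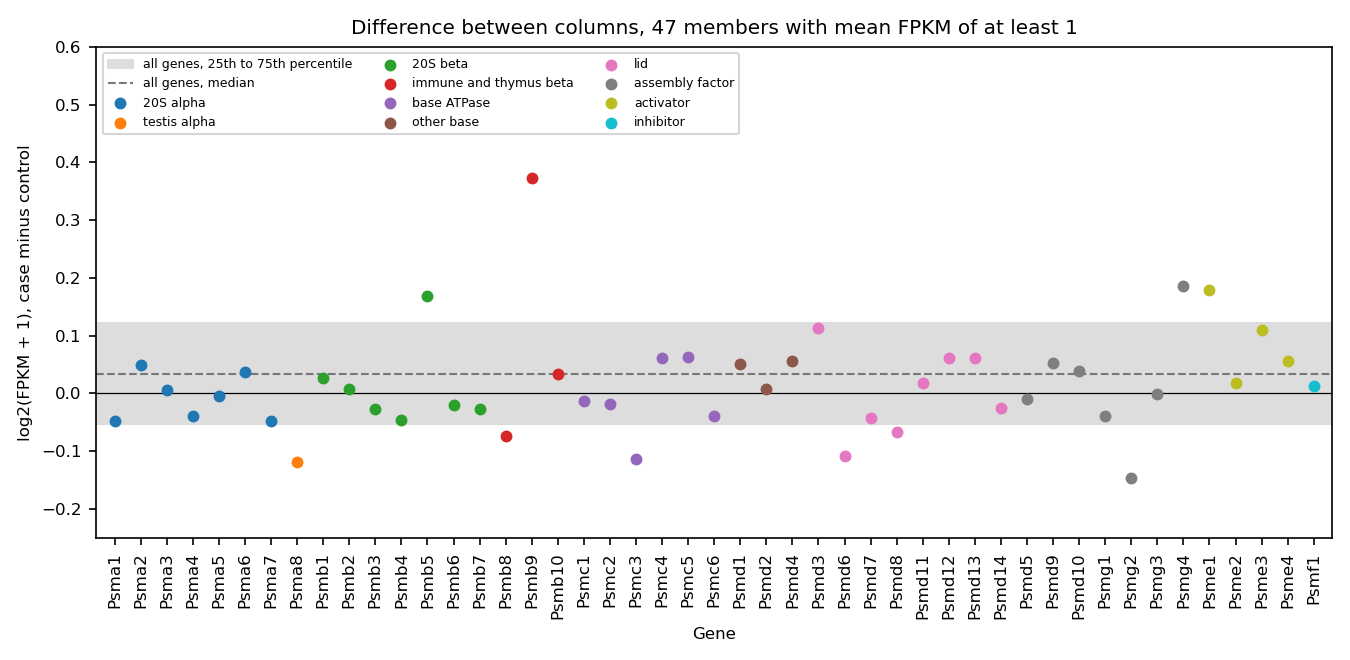
Difference in log2(FPKM + 1) between the case column and the control column for the 47 members with a mean of at least 1 FPKM, coloured by role. The grey band is the interquartile range of all 12794 genes and the dashed line is their median of 0.03; 37 members lie inside the band, 4 above it and 6 below it.

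Psmb9, Psmg4, Psme1, Psmb5 and Psmd3 had the largest positive differences, and Psmg2, Psma8, Psmc3, Psmd6 and Psmb8 the largest negative ones. None of these 10 had an authors' p under 0.05. They come from different parts of the complex: a replacement beta subunit, an assembly factor, an activator, a standard beta subunit and a lid subunit on the positive side. On the negative side stood an assembly factor, the testis alpha subunit, an ATPase, a lid subunit and another replacement beta subunit. Their values follow with the roles.

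The alpha rings contain 7 standard subunits, and their transcripts spanned a wide range. Psma7 (NM_011969; mm10 chromosome 2, 180036376 to 180042402), the most abundant member of all, stood at 229 FPKM in the case column and 237 FPKM in the control column. Psma6 was at 188 and 183 FPKM and Psma2 at 184 and 177 FPKM in the same order. Next came Psma4 with 120 and 123 FPKM and Psma1 with 96.2 and 99.5 FPKM. Far lower were Psma3, at 17.1 FPKM in both columns, and Psma5 (NM_011967; chromosome 3, 108256926 to 108279952), at 10.4 FPKM in the case column and 10.5 FPKM in the control column. Psma7 was thus 21.9 times as abundant as Psma5 in the case column and 22.6 times in the control column, although each ring of the assembled particle holds the same number of both proteins. Psma5 has a named pseudogene in the RefSeq table, Psma5-ps, and copies of this kind can take reads of the parent gene. Whether they did so here was not tested, and the level of Psma5 is uncertain to that extent. The deposited interval of Psma6 is 6.19 times as long as its RefSeq gene, and that of Psma3 1.55 times, so both are intervals that reach beyond the gene and their coordinates are not given.

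Between columns the alpha subunits differed little. Of the 7, 3 were higher and 4 lower in the case column, with differences from -0.05 for Psma1 to 0.05 for Psma2 and a median of -0.00406. Psma3 turned to slightly lower under both scaling alternatives and Psma6 under median-of-ratios scaling, which made the split 1 higher and 6 lower there, and 2 and 5 after quantile normalization. Their p-values in the authors' deposited table ran from 0.840 for Psma2 to 0.991 for Psma5.

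In the beta rings 6 of the 7 subunits averaged over 60 FPKM, and Psmb3 stood apart below them. Psmb4 (NM_008945; chromosome 3, 94884324 to 94886958), a beta subunit without a cutting site, stood at 217 FPKM in the case column and 224 FPKM in the control column. Psmb7, the trypsin-like subunit, was at 197 and 200 FPKM, Psmb1 at 192 and 188 FPKM and Psmb2 at 177 and 176 FPKM. Psmb6, the caspase-like subunit, had 149 and 151 FPKM. Psmb5 (NM_011186; chromosome 14, 54614120 to 54617995), the chymotrypsin-like subunit and the main target of proteasome inhibitor drugs, was at 71.2 FPKM in the case column and 63.2 FPKM in the control column. Psmb3 was lowest at 29.0 and 29.6 FPKM. Over both kinds of ring, 11 of the 14 standard core subunits averaged over 60 FPKM and the other 3, Psma3, Psma5 and Psmb3, under 30 FPKM.

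Psmb5 had the largest difference among the standard core subunits, 0.17 on the log2(FPKM + 1) scale or 1.13-fold, with p = 0.544 in the authors' deposited table. The other 6 beta subunits lay between -0.05 and 0.03. Reads of Psmb5, Psmb6 and Psmb7 can be shared with the named pseudogenes Psmb5-ps, Psmb6-ps, Psmb6-ps2, Psmb7-ps1 and Psmb7-ps2, so a difference of this size in Psmb5 is uncertain for that reason as well. Summed over the 14 subunits, the 20S core stood at 1876 FPKM in the case column and 1881 FPKM in the control column.

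The replacement subunits were scarce next to the standard ones. Psmb8 (NM_010724; chromosome 17, 34198195 to 34201454), which takes the place of Psmb5, was at 1.56 FPKM in the case column and 1.69 FPKM in the control column. That made it 2.15% and 2.61% of the pair's summed FPKM, case first. Psmb9 (NM_013585; chromosome 17, 34182099 to 34187330), which takes the place of Psmb6, was at 2.68 FPKM in the case column and 1.84 FPKM in the control column, or 1.77% and 1.205% of its pair. Psmb10 (NM_013640; chromosome 8, 105935728 to 105938392), which takes the place of Psmb7, was the most abundant of them at 9.90 and 9.66 FPKM, or 4.80% and 4.596% of its pair. Psmb11 (NM_175204; chromosome 14, 54625310 to 54629556), the thymus subunit, was at 0.0775 and 0.0415 FPKM, and its row was not tested by the authors. Standard cutting subunits therefore exceeded their immune counterparts by 45.6 times for Psmb5, 55.5 times for Psmb6 and 19.9 times for Psmb7 in the case column, and by 37.3, 82.0 and 20.8 times in the control column.

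**Figure D3:**
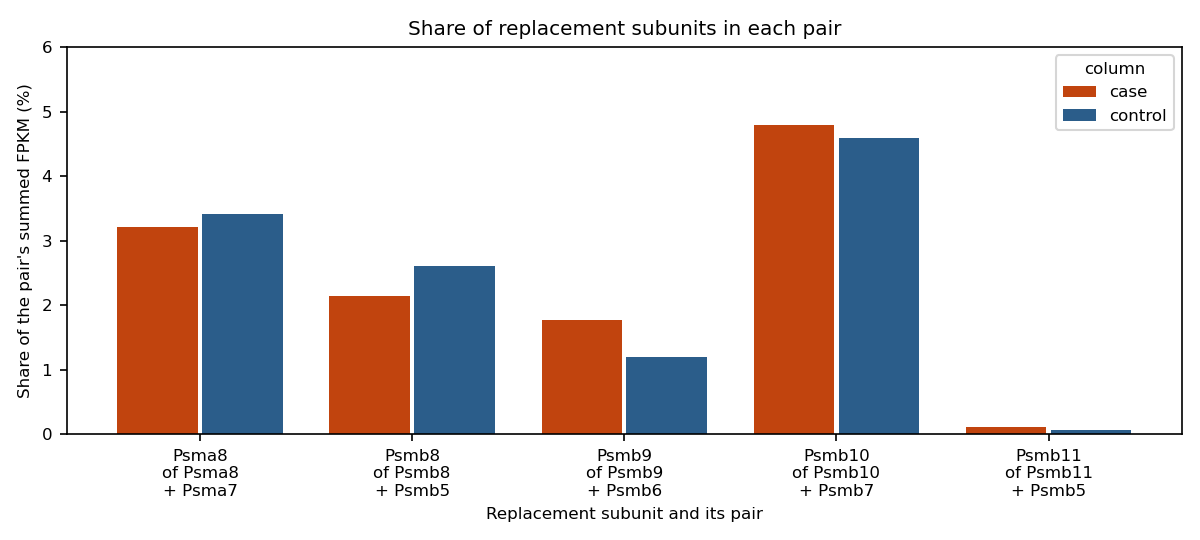
Share, in percent, of each replacement subunit in the FPKM summed over it and the standard subunit it replaces, for the pooled column labelled case (left bar) and the pooled column labelled control (right bar). Every share is under 5%, and the bars of Psmb9 stand at 1.77% and 1.205%, those of the hardly detected Psmb11 at 0.109% and 0.0656%.

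Psmb9 was 1.46-fold higher in the case column, the largest difference among the 47 members counted, yet p was 0.442 in the authors' deposited table. At a level under 3 FPKM the pseudocount matters: with 0.1 in place of 1 its difference was 0.52 and not 0.37. Psmb8, which lies near it on chromosome 17 with Tap1 between them, went the other way at 0.921-fold (p = 0.861 in the authors' deposited table). Tap1 and Tap2, the peptide transporter genes of the same chromosome region that interferon raises together with both, were at 1.54 and 1.52 FPKM and at 2.48 and 2.33 FPKM, case first. Psmb8, Psmb9, Tap1 and Tap2 thus stood at similar low levels, and of these only Psmb9 differed by over 1.2-fold between columns.

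Immune cells of the testis express the same subunits, so their markers are given beside them. Of the 17 macrophage and antigen presentation genes listed, 16 were in the table and 13 averaged at least 1 FPKM. Of these, 3 were higher and 10 lower in the case column, with a median of -0.11. Among all genes 60.7% were higher, with a median of 0.03. Over all 16, FPKM summed to 117 in the case column and 137 in the control column, and 0 passed the authors' q-value. Some macrophage genes stood above 1 FPKM in both columns: Csf1r at 6.14 and 6.62 FPKM, Cd68 at 2.96 and 3.26 FPKM and C1qa at 10.1 and 11.3 FPKM, case first. Cx3cr1 was slightly higher in the case column, at 2.53 and 2.31 FPKM. Others averaged under 1 FPKM: Cd14 at 0.646 and 0.655 FPKM, Cd163 at 0.254 and 0.289 FPKM and Ptprc at 0.470 and 0.406 FPKM. Adgre1 was the listed gene without a row. Cd74, the chaperone of class II antigen molecules, was at 6.22 and 2.04 FPKM summed over 2 rows. The authors' deposited table gives its main row p = 0.00524, and that row did not pass the q-value. The class II genes themselves did not share a direction, with H2-Ab1 at 1.70 and 3.07 FPKM and H2-Aa at 1.26 and 1.01 FPKM, case first. Lyz2, the macrophage lysozyme, had 31.9 FPKM in the case column and 45.6 FPKM in the control column and so made up most of the difference in the sum. Of 12 interferon response genes, 7 averaged at least 1 FPKM, 4 higher and 3 lower (57.1% higher, beside 60.7% of all genes), with a median of 0.01. What part these cells had in the levels of Psmb8, Psmb9 and Psmb10 was not tested.

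The promoters of the beta subunits are shown because the standard and replacement genes differed so widely in level. Each sequence is the 250 bases before the RefSeq transcription start, build GRCm38.p6, read 5′ to 3′ on the strand of the gene. Capitals mark matches, on either strand, to TGACNNNGC (the core of the antioxidant response element, bound by the proteasome regulator Nfe2l1), to CCAAT, to the GC box motif GGGCGG, to the TATA box motif TATAAA or to GAAANNGAA (the core of an interferon response element).
Psmb8, chr17:34197945-34198194, plus strand: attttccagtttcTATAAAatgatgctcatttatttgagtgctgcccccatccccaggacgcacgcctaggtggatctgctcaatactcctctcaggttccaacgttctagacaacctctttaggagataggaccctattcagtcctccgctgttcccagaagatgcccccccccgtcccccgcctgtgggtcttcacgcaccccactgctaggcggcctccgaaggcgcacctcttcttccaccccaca
Psmb5, chr14:54617996-54618245, minus strand: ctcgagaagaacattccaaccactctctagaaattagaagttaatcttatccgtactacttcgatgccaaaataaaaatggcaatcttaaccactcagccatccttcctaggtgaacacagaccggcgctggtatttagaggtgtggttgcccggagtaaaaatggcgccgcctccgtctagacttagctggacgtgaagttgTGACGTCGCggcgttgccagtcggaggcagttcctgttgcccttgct
Psmb9, chr17:34187331-34187580, minus strand: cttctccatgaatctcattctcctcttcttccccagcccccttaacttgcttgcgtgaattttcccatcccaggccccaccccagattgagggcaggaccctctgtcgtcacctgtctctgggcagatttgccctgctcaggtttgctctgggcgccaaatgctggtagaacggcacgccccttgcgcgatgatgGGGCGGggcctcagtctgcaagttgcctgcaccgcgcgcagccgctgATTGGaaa
Psmb6, chr11:70525107-70525356, plus strand: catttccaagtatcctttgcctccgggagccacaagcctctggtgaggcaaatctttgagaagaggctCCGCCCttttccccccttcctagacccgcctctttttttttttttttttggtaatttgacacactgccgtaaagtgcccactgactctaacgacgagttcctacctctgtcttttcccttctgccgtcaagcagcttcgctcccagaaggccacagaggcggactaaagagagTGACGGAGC
Psmb10, chr8:105938393-105938642, minus strand: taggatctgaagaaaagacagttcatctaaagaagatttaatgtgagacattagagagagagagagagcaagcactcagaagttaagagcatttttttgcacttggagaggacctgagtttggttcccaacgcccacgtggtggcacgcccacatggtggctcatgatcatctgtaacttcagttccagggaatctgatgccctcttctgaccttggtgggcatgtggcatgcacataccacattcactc
Psmb4, chr3:94886959-94887208, minus strand: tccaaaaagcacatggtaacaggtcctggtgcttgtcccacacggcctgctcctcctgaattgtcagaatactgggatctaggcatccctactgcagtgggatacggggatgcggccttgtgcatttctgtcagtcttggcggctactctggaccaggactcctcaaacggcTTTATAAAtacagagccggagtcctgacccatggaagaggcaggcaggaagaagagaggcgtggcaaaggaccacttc

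In these windows Psmb5 and Psmb6 each held a TGACNNNGC match, beginning 47 and 9 bases before the start. Psmb8, Psmb9 and Psmb10 held none. Neither did Psmb4, the most abundant beta subunit, nor the standard subunit Psmb3, whose window is not shown. With a match in 11.5% of all genes, so few windows cannot set replacement genes apart from standard ones. GAAANNGAA was found in 0 of the 4 immune and thymus genes, beside 8.18% of all genes, and in the standard subunits Psmb3 and Psmd4. Psmb4 carried TATAAA on both strands in overlapping positions, 78 and 76 bases before its start, while the TATAAA match of Psmb8 began 237 bases away. Psmb9 had a GC box and a CCAAT match, Psmb6 a GC box, and the window of Psmb10 held no match to any of the 5 motifs. These matches describe the letters and say nothing of binding.

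Windows of the same 250 bases were searched for 40 of the 48 members, and not for Psma8, Psmb1, Psmb2, Psmb7, Psmc3, Psmd3, Psmd7 and Psmg2. Of the 40, 5 held TGACNNNGC (12.5%, beside 11.5% of 27025 genes in the RefSeq promoter table): Psmb5, Psmb6, Psmc6, Psmd9 and Psmd12. GGGCGG was found in 22 of 40 members (55.0%, beside 35.4% of all genes), and median GC content was 57.6% in the members' windows and 52.4% in all windows. CCAAT was found in 35% of members and 37.5% of all genes, TATAAA in 10.0% and 14.3%, and GAAANNGAA in 7.50% and 8.18%. GC boxes and GC content were thus both above the share in all promoters, and the other 4 motifs were within 5 percentage points of it. That background takes in genes of any level, expressed here or not, and no set matched for level was searched. GGGCGG is made of G and C alone, so its share and the GC content are not separate features.

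Psma8 takes the place of Psma7 in the proteasomes of male germ cells, and mice without it arrest in meiosis. It was at 7.62 FPKM in the case column and 8.36 FPKM in the control column, 0.912-fold, with p = 0.739 in the authors' deposited table. Its share of the summed FPKM of Psma7 and Psma8 was 3.22% in the case column and 3.41% in the control column. Psma7 was thus 30.1 and 28.4 times as abundant, case first. Genes of meiotic prophase are given beside it, since meiotic cells are where Psma8 acts.

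All 19 listed meiotic prophase genes were lower in the case column, whereas 60.7% of all genes were higher there. Their median was -0.61, with a range from -1.42 to -0.06. Their FPKM summed to 495 in the case column and 776 in the control column. Of the 17 with a usable p-value, 7 had an unadjusted p under 0.05 in the authors' deposited table, beside 1.28% of all tested rows, and 0 passed the q-value. The list was chosen with earlier results of these data known, so its counts are a description and not a test. Sycp1, whose protein joins paired chromosomes, had 38.5 and 59.1 FPKM, and the meiotic recombinase Dmc1 had 14.2 and 24.9 FPKM, case first. Psma8, at -0.12, lay within the range of that list, with only Syce2 (-0.09) and Rec8 (-0.06) closer to zero. It lay outside the interquartile range of the list, which was -0.87 to -0.37. Other members differed by similar amounts: Psmg2 (-0.15), Psmc3 (-0.11) and Psmd6 (-0.11) downward, Psmd3 (0.11) and Psme3 (0.11) upward. The difference between Psma8 and the meiotic genes was not tested. In bulk testis RNA, fewer meiotic cells and less RNA per cell cannot be told apart.

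In the base of the cap, the ATPases Psmc1 to Psmc6 stood within a narrow band of levels. Psmc3 (NM_008948; chromosome 2, 91054016 to 91059438) was the most abundant at 132 FPKM in the case column and 143 FPKM in the control column, and Psmc4 the least at 69.5 and 66.6 FPKM. Psmc5 was at 116 and 111 FPKM, Psmc1 at 98.2 and 99.2 FPKM, Psmc6 at 85.2 and 87.5 FPKM and Psmc2 at 75.5 and 76.5 FPKM. The highest ATPase was thus 1.90 times the lowest in the case column and 2.15 times in the control column, a far smaller span than in the alpha ring. Psmc3 had the largest difference of the 6, 0.924-fold with p = 0.636 in the authors' deposited table. Of the 6, 2 were higher and 4 lower in the case column, with a median of -0.02.

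The other base subunits recognise and dock ubiquitin chains. Psmd2, a docking scaffold, was at 152 FPKM in the case column and 151 FPKM in the control column. Psmd4, an intrinsic ubiquitin receptor, was at 131 and 126 FPKM, and Psmd1, the companion scaffold, at 76.2 and 73.5 FPKM. All 3 were slightly higher in the case column, by 0.01 to 0.06 on the log2(FPKM + 1) scale, and Psmd2 turned to slightly lower under both scaling alternatives (-0.03 and -0.01).

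The 8 lid subunits ran from Psmd7 at 117 and 120 FPKM to Psmd11 at 41.9 and 41.4 FPKM, case first. Psmd14, the metalloprotease that cuts ubiquitin chains off the substrate, was at 73.9 FPKM in the case column and 75.2 FPKM in the control column, close to the median of the lid. Of the 8, 4 were higher and 4 lower, or 3 and 5 under median-of-ratios scaling, where Psmd11 turned to lower. Psmd3 (NM_009439; chromosome 11, 98682554 to 98695978), a scaffold subunit, was at 59.6 and 55.1 FPKM, 1.08-fold with p = 0.638 in the authors' deposited table. Psmd6 (NM_025550; chromosome 14, 14112185 to 14120904), another scaffold subunit, was at 68.2 and 73.5 FPKM, 0.927-fold with p = 0.669 in the authors' deposited table. Neighbours in the same lid therefore lay on opposite sides of zero. Psmd8 was at 87.7 and 91.9 FPKM, Psmd12 at 75.4 and 72.2 FPKM and Psmd13 at 73.8 and 70.7 FPKM.

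The whole cap of 17 genes summed to 1533 FPKM in the case column and 1535 FPKM in the control column, and its median difference was 0.01, beside -0.01 for the core. Core subunits had a higher median level than cap subunits, 163 FPKM and 76.2 FPKM in the case column and 164 FPKM and 76.5 FPKM in the control column.

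Assembly factors are chaperones that leave before the particle is finished, and all 7 were below 50 FPKM. Psmg1 and Psmg2 form a pair that starts the alpha ring: Psmg1 was at 37.6 FPKM in the case column and 38.7 FPKM in the control column, and Psmg2 (NM_134138) at 30.3 and 33.7 FPKM. Psmg2 had the most negative difference of all 47 members, -0.15 or 0.901-fold, with p = 0.633 in the authors' deposited table. Psmg3 and Psmg4 form the other pair. Psmg3 was at 15.0 FPKM in both columns, while Psmg4 (chromosome 13, 34162977 to 34178172) was at 39.1 FPKM in the case column and 34.3 FPKM in the control column, 1.14-fold. In these single pooled values, partners in a pair had unlike levels and unlike differences between columns. Whether partners truly differ was not tested. The transcripts of Psmg4 also differed: NM_001101430 was at 23.2 and 18.9 FPKM (the authors' deposited table: p = 0.538) and NM_001110515 at 15.9 and 15.4 FPKM (the authors' deposited table: p = 0.933).

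The chaperones of the base are Psmd5, Psmd9 and Psmd10. Psmd5 was highest, at 44.4 FPKM in the case column and 44.7 FPKM in the control column, and Psmd9 lowest, at 14.3 and 13.8 FPKM. Psmd10, also known as gankyrin and the only member on chromosome X, was at 17.3 and 16.8 FPKM summed over its 2 rows, both of them slightly higher in the case column. Under median-of-ratios scaling its sum turned to -0.000613. Over all 7 assembly factors, 3 were higher and 4 lower, with a median of -0.00127, and 2 were higher and 5 lower under median-of-ratios scaling.

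Activators are alternative caps that open the barrel without ATP. Psme1 (NM_011189) was at 98.7 FPKM in the case column and 87.1 FPKM in the control column, 1.13-fold with p = 0.483 in the authors' deposited table, the second smallest p among the members. Its deposited interval is 2.23 times as long as the RefSeq gene. Psme2 (chromosome 14, 55587440 to 55591101), with which it forms a mixed ring, was at only 13.7 and 13.5 FPKM summed over 2 rows, so Psme1 exceeded it by 7.20 times in the case column and 6.44 times in the control column. The lesser row of Psme2, NM_001029855, ran the opposite way to its sum, at 0.996 and 1.35 FPKM. A related gene, Psme2b, is listed in the RefSeq table, so reads of Psme2 may be shared and its level is uncertain.

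Psme3 (NM_011192; chromosome 11, 101316251 to 101323530), the nuclear activator that forms a ring of its own kind, was at 68.4 FPKM in the case column and 63.3 FPKM in the control column, 1.08-fold with p = 0.643 in the authors' deposited table. Psme4 (NM_134013; chromosome 11, 30771775 to 30880361), the large activator that serves the turnover of acetylated histones in later male germ cells, was at 18.4 and 17.7 FPKM, 1.04-fold with p = 0.812 in the authors' deposited table. All 4 activators were higher in the case column, by a median of 0.08, but Psme2 turned to slightly lower under both scaling alternatives (-0.02 and -0.01) and 60.7% of all genes lay on the same side. Psmf1 (NM_212446; chromosome 2, 151716062 to 151741293), which inhibits the core in isolation, was at 10.1 and 10.0 FPKM.

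Other genes of the ubiquitin-proteasome pathway were listed to see whether the surroundings of the complex differed. Of 32 names, some of them alternative names of the same gene, 24 were in the table, all above a mean of 1 FPKM. Of these, 13 were higher and 11 lower in the case column (54.2% higher, beside 60.7% of all genes), with a median of 0.02. None of the 21 with a usable p-value in the authors' deposited table had p under 0.05, beside 1.28% of all tested rows. That count does not set so short a list apart from the table. Pomp, the chaperone that completes the core, was at 135 FPKM in the case column and 148 FPKM in the control column (p = 0.620 in the authors' deposited table). Adrm1, a ubiquitin receptor of the base, was at 16.1 and 17.2 FPKM. The deubiquitinases attached to the cap, Usp14 and Uchl5, were at 30.2 and 29.0 FPKM and at 18.8 and 17.8 FPKM.

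Nfe2l1, the transcription factor that raises proteasome genes when the complex is short, was at 71.3 FPKM in the case column and 66.3 FPKM in the control column, summed over 6 rows; its main row could not be tested by the authors. The related factor Nfe2l2 was at 44.7 and 40.0 FPKM (the authors' deposited table: p = 0.569). Of the ubiquitin-activating enzymes, Uba1 was at 135 and 121 FPKM summed over 2 rows (the authors' deposited table: p = 0.502 for its main row alone). Uba6 was at 25.8 and 29.6 FPKM (the authors' deposited table: p = 0.418, the smallest in the list). The pathway list thus had small differences on both sides of zero, as the complex did.

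The remaining cell type lists place these values. Leydig cell and stromal genes were higher in the case column in 11 of 11, beside 60.7% of all genes, with a median of 0.25. Spermatogonial genes were divided, 7 higher and 8 lower, with a median of -0.00351, and Sertoli cell genes likewise, 5 and 5, with a median of 0.01. Among the Sertoli cell genes Rhox5, a homeobox gene, was at 8.90 FPKM in the case column and 19.3 FPKM in the control column (the authors' deposited table: p = 0.0254). None of these genes passed the q-value in the authors' deposited table. These lists too were chosen with earlier results of these data known, so their counts are a description. The medians of the meiotic and of the Leydig and stromal lists thus lay farther from zero than that of the proteasome genes, while those of the spermatogonial and Sertoli lists lay close to zero, and their part in the differences of single members was not tested.

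**Figure D4:**
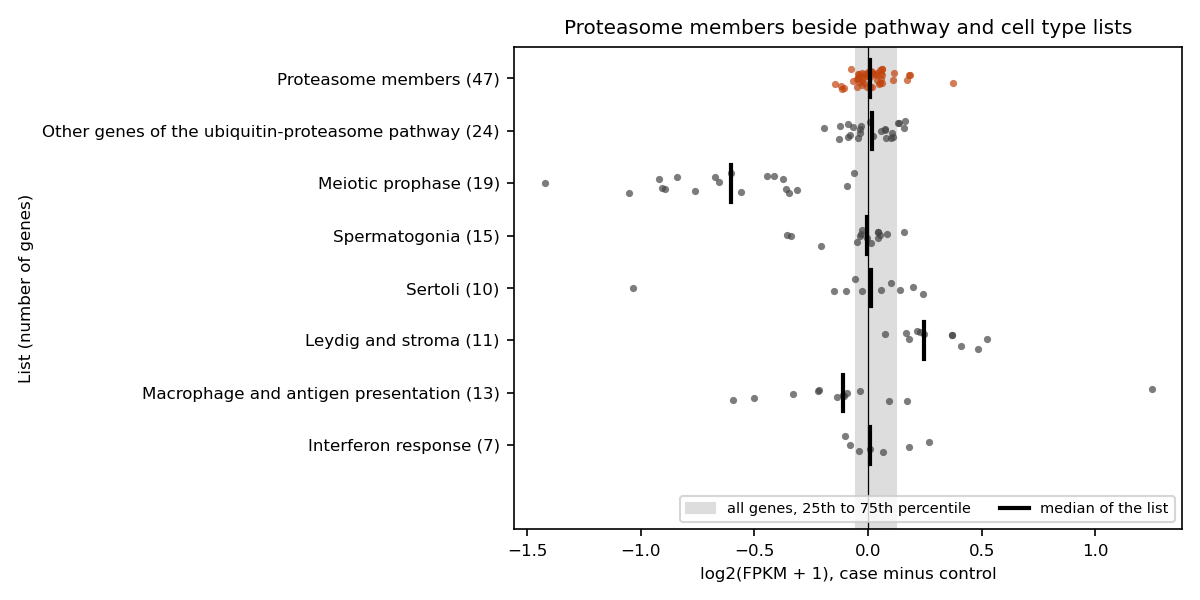
Difference in log2(FPKM + 1), case minus control, for each gene with a mean of at least 1 FPKM in the proteasome (top row), in the rest of its pathway and in 6 cell type or response lists, with the number of genes in brackets. Black bars are list medians and the grey band is the interquartile range of all genes; the proteasome bar is at 0.01, the meiotic prophase bar at -0.61 and the Leydig and stroma bar at 0.25.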

How the data were processed

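RNA-seq of the 3 Lin28a knockout and 3 wild-type libraries was analysed. Reads were aligned with TopHat2 2.0.9 to mm10, per the submitters' processing notes. The authors deposited FPKM pooled by group, in columns headed case and control, and, per the file headers, a log2 ratio of these, the p-value, the q-value and a status for each row. No source used here names the program behind them. The deposited log2 ratio is control over case; every difference here is case minus control. The q-values equal a Benjamini-Hochberg adjustment of the 13629 rows of status OK, within 2.26e-06. Starts were read as counting from 0 and 1 was added.

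FPKM was summed over the rows of a gene, by the first name in the table; a row without a name counted as its own gene. Differences of log2(FPKM + 1), pseudocount 1, were taken for genes with a mean of at least 1 FPKM, and understate changes at low levels. With no value per library no limma fit was possible, so calls are the authors' (q under 0.05). Promoters come from RefSeq tables of GRCm38.p6; 98.0% of deposited accessions matched RefSeq. Scripts were tested on simulated data and run with Python 3.11.15, numpy 2.4.6, pandas 2.3.3 and matplotlib 3.10.9. Depth per sample is unknown, so no interval is given. A rule picked the members to detail: those with p under 0.05 (0 here) and the 5 largest differences either way. It also took the highest and lowest of each role, the replacement pairs, activators and inhibitor. All of these have both FPKM values in the text, but fold and p-value are printed for only some. Members, lists and motifs were chosen with earlier results of these data known.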

Additional observations from a re-analysis of the deposited data

How the results depend on the processing

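No member row was called in any of 4 ways of calling: as deposited, adjusted again at a mean of at least 1 FPKM, at q under 0.10, and at q under 0.05 with at least 1.5-fold; each called 7 rows of the table. The 25 members higher in the column labelled case became 15 under median-of-ratios scaling, which divided the ratio of the columns by 1.03, and 19 under quantile normalization; the median difference was then -0.03 and -0.01, against 0.01. The median kept its sign, and the count stayed between 24 and 26, with the highest row of a gene, pseudocount 0.1, no filter, a mean of at least 5 FPKM, rows of status OK, and RefSeq symbols, which add Psme3ip1. The summed FPKM ratio stayed between 0.975 and 1.003. Of 239 member values, 237 moved by at most 0.1; with pseudocount 0.1, Psmb9 was at 0.52 and Psmb11 at 0.33, and with the highest row of a gene Psmg4 was at 0.28, against 0.19. In 16 the sign changed, all under the scalings. No paired analysis was possible because the table holds a single value for a whole group; leaving out a library was not run for the same reason. Depth is unknown.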
